A study of Mus musculus with 81 samples.

Results

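Lgmn encodes legumain, and its expression is described here across every RNA library of a mouse hybridoma mature T cell line that could be tied to a labelled sample. It is 1 gene of 24391 in the count table, with values in 41 libraries that form 16 groups in 5 experiments. Lgmn was picked because its level was higher after loss of the DNA-binding factor RBPJ, with wild type KYOT2 and with gain of Notch activity. The values of those comparisons therefore chose the gene and are given as a description, with no test. Not named by the choice were KYOT2 WWAA against GFP, GSI against DMSO, and line 2-12 against line 2-14, and these were tested. Only GSI against DMSO shares no library with the comparisons that chose the gene. The tests of the others are not independent of the choice.

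The depletion experiment holds lines sgRbpj_2-12 and sgRbpj_2-14, edited with CRISPR to lose RBPJ, and the line Control_sgRbpj, with 2 libraries each. The NICD1-ER experiment holds cells infected with NICD1-ER, a fusion of the Notch1 intracellular domain with the hormone-binding part of the estrogen receptor. They received ethanol for 24 h (2 libraries) or 1 µM of 4-hydroxytamoxifen (4-OHT) for 4 h (3), 8 h (3) or 24 h (2). The labels list 3 replicates for ethanol and for 24 h of 4-OHT. Replicate 1 of each could not be tied to a column of counts and was left out, so 41 of 43 RNA samples were used. The KYOT2 experiment holds cells infected with GFP-KYOT2 wild type, with GFP-KYOT2 WWAA, which the labels call defective in binding RBPJ, or with GFP alone, with 3 libraries each. The GSI experiment sets the gamma-secretase inhibitor DAPT (20 µg/ml for 24 h) against DMSO, with 2 libraries each. The BioNICD1 experiment crosses RBPJ depletion with BioNICD1, a tagged Notch1 intracellular domain, or its control Biocontrol, with 3 libraries for each of 4 groups; which edited line was used there is not stated. Nothing in the labels says that replicates came from separate cultures, so p-values measure only the spread between these samples, which may be technical.

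Legumain is an asparaginyl endopeptidase of the lysosome: it cuts proteins after asparagine and matures other lysosomal proteases such as cathepsins B, H and L. It is best known from kidney tubules and from antigen-presenting cells such as macrophages, where it takes part in cutting antigens. RBPJ binds DNA and holds genes down together with corepressors; when the Notch receptor is cleaved by gamma-secretase, its intracellular domain (NICD) joins RBPJ on DNA and the complex activates transcription. KYOT2 is a LIM-domain protein made from Fhl1 that binds RBPJ.

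Because RBPJ acts through DNA, the 250 bases before each of the 2 Lgmn transcript starts in RefSeq (build GRCm38.p6, minus strand) are shown, 5′ to 3′ on the strand of the gene. The upstream window lies at chr12:102439729-102439978 and the downstream window at chr12:102439093-102439342. Capitals mark the motif matches described after the sequences.
Lgmn upstream window: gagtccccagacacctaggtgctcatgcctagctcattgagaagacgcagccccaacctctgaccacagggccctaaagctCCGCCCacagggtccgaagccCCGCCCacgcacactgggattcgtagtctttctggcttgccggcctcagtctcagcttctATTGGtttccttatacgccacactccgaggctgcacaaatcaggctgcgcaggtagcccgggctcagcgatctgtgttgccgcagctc
Lgmn downstream window: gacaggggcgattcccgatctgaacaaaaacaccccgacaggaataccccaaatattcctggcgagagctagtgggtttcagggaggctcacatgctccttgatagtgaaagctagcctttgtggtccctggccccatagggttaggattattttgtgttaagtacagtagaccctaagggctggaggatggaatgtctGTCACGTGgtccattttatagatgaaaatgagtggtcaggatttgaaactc
Neither window holds TGGGAA, the core letters bound by RBPJ, or the longer GTGGGAA, on either strand. Of 32851 windows of the same length in the table, 21.6% hold TGGGAA and 5.42% hold GTGGGAA, so a window without them is the common case. The upstream window holds 2 GC boxes (GGGCGG) on the reverse strand, at −169 and −148 with the base before the start counted as −1, and a CCAAT box on the reverse strand at −88. GC boxes occur in 32.7% of all windows and CCAAT in 33.8%. The downstream window holds GTCACGTG at −51, the core of the motif bound by the lysosomal regulators TFEB and TFE3, and 1.85% of windows hold it. The general E-box CACGTG lies inside it at −49 and occurs in 6.02% of windows. These matches describe letters only, in 250 bases before a start, and say nothing on whether a factor binds. The deposited region lists for RBPJ binding and histone marks use build mm9 and were not placed against Lgmn, so RBPJ binding at the gene is not analysed here.

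The labels were checked against the genes that were changed, with levels in CPM (counts scaled to library size by TMM over all libraries together; mean ± SD). Line 2-12 held 28.3 ± 6.42 CPM of Rbpj and line 2-14 held 38.0 ± 9.15 CPM, against 117 ± 25.4 CPM in the control line (n = 2 each). Fhl1, which reports the KYOT2 constructs, had 1420 ± 67.3 CPM in the wild type libraries and 902 ± 30.2 CPM in those of the WWAA mutant, against 0.192 ± 0.332 CPM with GFP (n = 3 each). The mutant was thus present in its libraries, at a lower mean level than the wild type. Notch1 reads, which NICD constructs also give, stood at 1208 ± 98.8 CPM in depleted cells with BioNICD1 and 223 ± 6.13 CPM in control cells with BioNICD1, against 8.33 ± 1.85 CPM and 1.15 ± 0.410 CPM in depleted and control cells with Biocontrol (n = 3 each). Library totals ran from 2377028 to 14244209 counts, and a floor of 3 counts in a library corresponds to 0.211 to 1.26 CPM; the floor covers counting error only. T cell markers were present throughout, with 7 or 8 of the 8 holding a count in every group and sums between 521 and 1594 CPM. Cd8a was the marker without a count in 12 of the 16 groups.

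**Figure D1:**
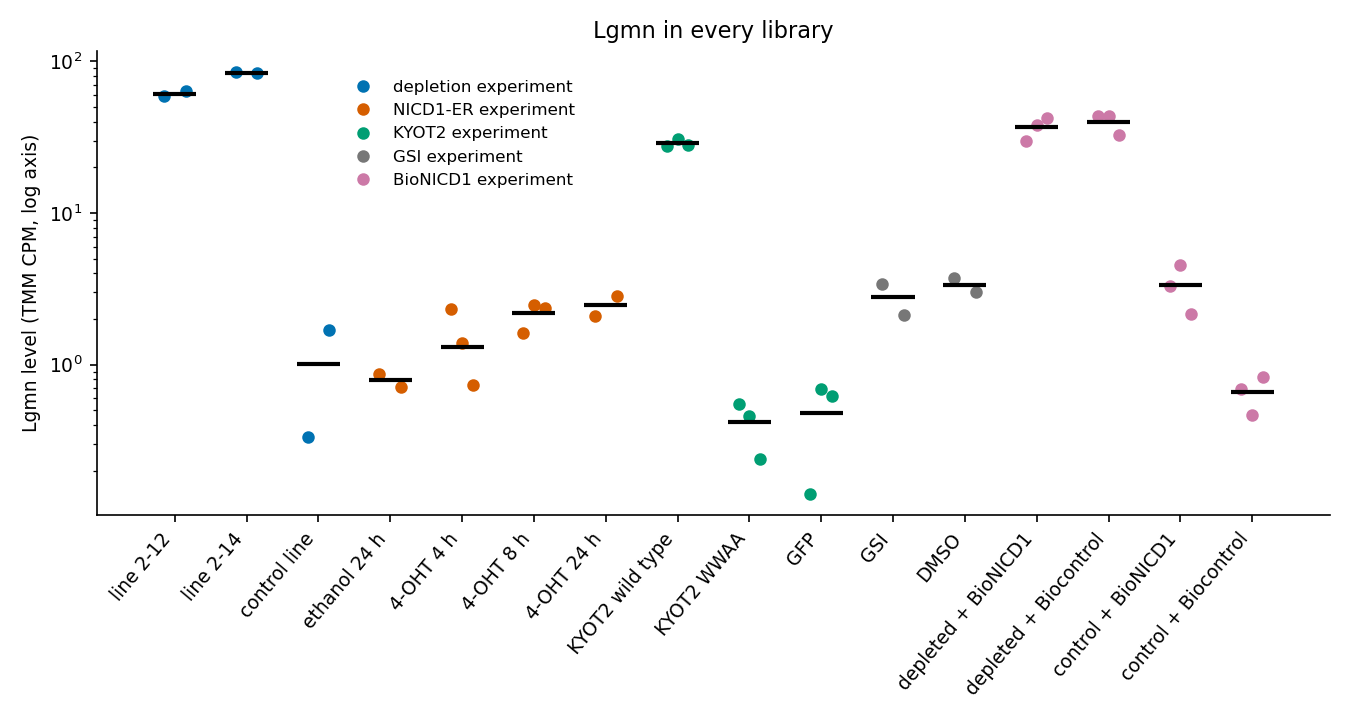
Lgmn level in TMM CPM on a log axis, with 1 point per library, grouped by condition and coloured by experiment; the bars are group means, with libraries 1 and 2 of the 4 h and 8 h 4-OHT groups counted as 1 sample. Libraries of 5 groups lie at or above 27.8 CPM, and all others lie at or below 4.53 CPM.

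Across the 16 groups, Lgmn fell into a low range and a high range with a wide gap between them. The plot of Lgmn in every library shows 11 groups whose libraries all lay at or below 4.53 CPM and 5 groups whose libraries all lay at or above 27.8 CPM. From low to high, the means were ordered as KYOT2 WWAA, GFP, control cells with Biocontrol, ethanol, the control line, 4-OHT at 4 h, at 8 h and at 24 h, GSI, control cells with BioNICD1 and DMSO in the low range. KYOT2 wild type, depleted cells with BioNICD1, depleted cells with Biocontrol, line 2-12 and line 2-14 followed in the high range. The means on either side of the gap, KYOT2 wild type and DMSO, come from separate experiments and differed 8.60-fold in TMM CPM. The experiments also differ in their libraries: Rn45s, a ribosomal RNA gene, held 1.81% to 5.56% of counts in KYOT2 libraries. In the other experiments it held 0.0534% to 0.263%, and its bearing on the order was not tested. Of the 15 neighbouring pairs in this order, the libraries of 3 did not overlap: DMSO and KYOT2 wild type, depleted cells with Biocontrol and line 2-12, and line 2-12 and line 2-14. The other neighbours did not differ beyond the spread of their libraries. The order depends on the scaling: with CPM by library total, 4 groups stood at another rank and 4 neighbouring pairs did not overlap. The gap stayed but was narrower, from 5.18 CPM in DMSO library 1 to 17.8 CPM in library 1 of depleted cells with BioNICD1. The high range holds every RBPJ-depleted group and the group with wild type KYOT2; the groups with gain of Notch activity in cells that keep RBPJ are all in the low range.

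After RBPJ depletion Lgmn had high counts in every edited library. Line 2-12 gave 327 and 493 counts, which are 58.9 and 63.6 CPM, and line 2-14 gave 466 and 678 counts, which are 85.3 and 83.5 CPM, against 1 and 11 counts in the control line, which are 0.333 and 1.69 CPM. The edited libraries lay far above both control libraries, with no overlap. The edited lines averaged 72.8 ± 13.5 CPM (SD, n = 4) and the control line 1.01 ± 0.960 CPM (n = 2). The SD of the edited lines pools libraries of both lines. The SE given next comes from the spread between libraries of the same line, so it does not measure the spread between separately edited lines. The fitted log2 fold change was 5.83 (SE 0.310), which is 56.7-fold, and it ranked 40 of 11566 genes tested from the top. In these bulk libraries more RNA per cell and more cells that express the gene cannot be told apart. With 12 counts in the 2 control libraries together, the size of the fold rests on few reads: without control library 2 the log2 fold change was 7.65, and without 1 of the other libraries it was no lower than 5.38.

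The edited lines were also set against each other, a comparison that the choice did not name. Its libraries are the high side of the rise with RBPJ loss that chose Lgmn, so the test is not independent of the choice. Lgmn averaged 61.2 ± 3.27 CPM (SD, n = 2) in libraries of line 2-12 and 84.4 ± 1.25 CPM (n = 2) in those of line 2-14, and the libraries of the lines did not overlap. Line 2-12 over line 2-14 gave a log2 fold change of −0.46 (SE 0.200), with an adjusted p of 1 in edgeR over all genes and an unadjusted p of 0.0560. The difference did not pass the test. Between the lines 0.484% of genes passed it.

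The BioNICD1 experiment also entered the choice of the gene, and Lgmn was high in its depleted cells too. Depleted cells with Biocontrol gave 330, 357 and 199 counts of Lgmn, which are 43.8, 43.8 and 32.7 CPM, against 4, 3 and 5 counts in control cells with Biocontrol, which are 0.695, 0.469 and 0.831 CPM. The means were 40.1 ± 6.42 CPM and 0.665 ± 0.183 CPM (SD, n = 3 each), and the log2 fold change was 5.90 (SE 0.323), or 59.7-fold, rank 37 of 11315 genes. The libraries did not overlap, and the fold was close in size to that of the edited lines. The control cells of these experiments are not the same libraries. Both folds belong to the choice of the gene, so their likeness is a description and no replication. Under BioNICD1 the gap was narrower: depleted cells gave 180, 283 and 280 counts (29.96, 38.2 and 42.4 CPM), against 24, 36 and 17 counts in control cells (3.32, 4.53 and 2.17 CPM). Depletion under BioNICD1 thus gave a log2 fold change of 3.42 (SE 0.239), or 10.7-fold.

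Read the other way, the same 4 groups show what BioNICD1 went with in each background. In control cells Lgmn averaged 3.34 ± 1.18 CPM with BioNICD1 and 0.665 ± 0.183 CPM with Biocontrol (SD, n = 3 each), with every BioNICD1 library above every Biocontrol library. This is a log2 fold change of 2.35 (SE 0.442), or 5.09-fold, rank 312 of 11315. In depleted cells Lgmn averaged 36.8 ± 6.32 CPM with BioNICD1 and 40.1 ± 6.42 CPM with Biocontrol (SD, n = 3 each), and the libraries overlapped. There it was −0.14 (SE 0.186), and its sign rests on 1 library: without depleted BioNICD1 library 1 it was 0.0078. These comparisons share libraries, so their values are set side by side and their difference was not tested. With BioNICD1, Notch1 reads stood at 1208 ± 98.8 CPM in depleted cells and 223 ± 6.13 CPM in control cells. The amount of the construct thus cannot be told apart from the background, here or in the narrower gap under BioNICD1. Across experiments, with no test, the 3.34 CPM of control cells with BioNICD1 lies next to the 3.36 ± 0.487 CPM (n = 2) of the DMSO libraries. For the DMSO libraries the labels name no NICD construct. This closeness depends on the scaling. With CPM by library total, control cells with BioNICD1 stood at 2.44, 3.58 and 1.75 CPM and DMSO at 5.18 and 4.27 CPM, with no overlap.

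With NICD1-ER, Lgmn stood at low counts at each time. Ethanol gave 5 and 5 counts, 4 h of 4-OHT gave 16, 10 and 5, 8 h gave 11, 17 and 17, and 24 h gave 15 and 18. In CPM these are 0.871 and 0.716 for ethanol, 2.35, 1.39 and 0.732 at 4 h, 1.62, 2.46 and 2.36 at 8 h, and 2.11 and 2.82 at 24 h. The 4 h libraries overlapped with ethanol, while those at 8 h and 24 h all lay above it. Libraries 1 and 2 at 4 h, and likewise at 8 h, differed by less than sampling noise (chi-square per gene 0.907 and 0.835) and were counted as 1 sample each. The 2 libraries at 24 h also differed by less than sampling noise (0.928), but with no other pair of that group to set them against they were kept apart, so the errors at 24 h may understate the spread between cultures. The means were then 0.793 ± 0.109 CPM for ethanol, 1.30 ± 0.805 CPM at 4 h, 2.20 ± 0.223 CPM at 8 h and 2.46 ± 0.505 CPM at 24 h (SD, n = 2 each). Against ethanol the log2 fold changes were 0.91 (SE 0.503) at 4 h, 1.44 (SE 0.463) at 8 h and 1.63 (SE 0.484) at 24 h, or 1.88-fold, 2.71-fold and 3.10-fold. The value at 4 h rests on 1 sample, since without libraries 1 and 2 it was −0.10. All 4-OHT times share the ethanol libraries, which were taken at 24 h.

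With KYOT2 wild type Lgmn was among a small number of genes with a large change. KYOT2 wild type gave 204, 339 and 271 counts of Lgmn, which are 27.8, 30.7 and 28.3 CPM, against 1, 6 and 6 counts with GFP, which are 0.141, 0.691 and 0.619 CPM. The means were 28.9 ± 1.58 CPM and 0.484 ± 0.299 CPM (SD, n = 3 each), with no overlap. Fitted, this was a log2 fold change of 5.80 (SE 0.219), or 55.5-fold, second of 11150 genes after Fhl1 itself, whose log2 value was 12.73 (SE 0.184). The third gene was Gzmb, which encodes the cytotoxic protease granzyme B, at a log2 fold change of 3.14 or 8.81-fold. With KYOT2 wild type set against KYOT2 WWAA, both of which carry a construct, Lgmn ranked 1 of 11150 at a log2 fold change of 6.07 (SE 0.225), or 67.3-fold. The next gene in that comparison, Gimap7, a GTPase of lymphocytes named after its value was seen, was at 2.80. Leaving out 1 library at a time, the log2 fold change of wild type over GFP ran from 5.45, without GFP library 1, to 6.08.

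KYOT2 WWAA against GFP was not named by the choice of the gene and was tested. The GFP libraries are, however, the low side of the wild type rise that chose Lgmn. Lgmn passed the filter on low counts in this experiment only through the wild type libraries. The test is therefore not independent of the choice, and no conclusion rests on it. KYOT2 WWAA gave 5, 4 and 2 counts of Lgmn, which are 0.555, 0.456 and 0.241 CPM, and GFP gave 1, 6 and 6 counts. The libraries overlapped, and the means were 0.417 ± 0.160 CPM and 0.484 ± 0.299 CPM (SD, n = 3 each). Its log2 fold change was −0.28 (SE 0.525), with an adjusted p of 0.931 in edgeR. A difference was not detectable at this depth, with 11 counts against 13 in all. Of all genes 0.0897% passed the test in this comparison, which is 10 genes, 8 of them higher with WWAA.

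GSI treatment was tested as well. GSI gave 24 and 16 counts of Lgmn, which are 3.42 and 2.13 CPM, and DMSO gave 28 and 27 counts, which are 3.71 and 3.02 CPM. The ranges overlapped. The means were 2.78 ± 0.910 CPM and 3.36 ± 0.487 CPM (SD, n = 2 each), and the log2 fold change was −0.29 (SE 0.286), with an adjusted p of 0.553 in edgeR. The difference did not pass the test, and its SE leaves room for a change of either sign. The label checks above hold none for GSI, and whether it lowered Notch activity in these libraries was not tested. The GSI libraries differed from each other by less than sampling noise (chi-square per gene 0.766), so errors in this experiment may understate the spread between cultures.

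**Figure D2:**
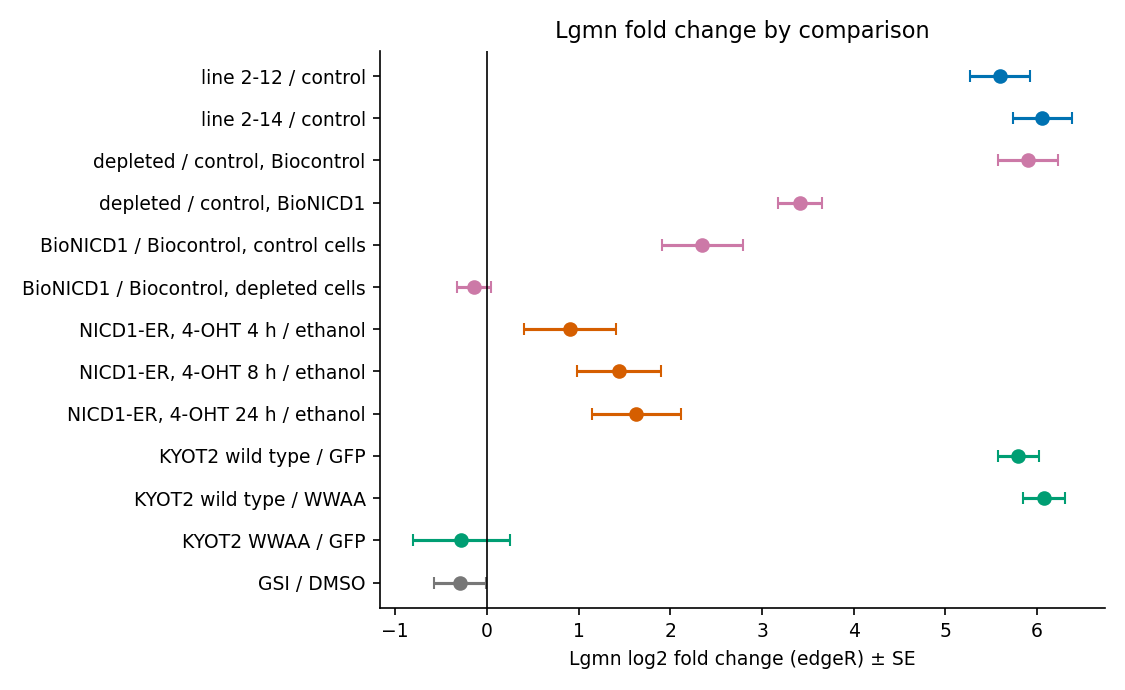
Lgmn log2 fold change from edgeR with its SE for 13 comparisons, the group named first over the group named after the slash, coloured by experiment. Depletion and KYOT2 wild type sit between 3.42 and 6.07, NICD gain in cells that keep RBPJ between 0.91 and 2.35, and the other 3 drawn (BioNICD1 in depleted cells, KYOT2 WWAA and GSI) between −0.29 and −0.14; line 2-12 against line 2-14 is not drawn.

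The 3 rises that chose Lgmn were shared by a small set of genes. Lgmn was picked for them, so its own place in the set is a description and no finding. Of 10872 genes tested in the edited lines, the KYOT2 and the NICD1-ER experiments, which share no library, 10 genes (0.092%) passed edgeR's test upward in the edited lines, with KYOT2 wild type and after 24 h of 4-OHT. Each comparison alone called 6.21%, 0.807% and 6.59% of its genes upward. Beside Lgmn the genes were Hes1, a repressor and the standard Notch target; Notch1, the receptor itself; Ifih1, a sensor of viral RNA; Gbp6 and Gbp7, GTPases of the interferon response; Ncald, a calcium-binding protein; Tnfrsf26, a receptor of the tumour necrosis factor family; Hip1r, an endocytic adaptor; and Nab1, a transcriptional corepressor. Lgmn had the highest log2 fold change of the 10 in the edited lines and with KYOT2 wild type. After 24 h of 4-OHT it was second by a small margin, at 1.63 for both Lgmn and Ncald. Hes1 came nearest to it in the edited lines, at a log2 fold change of 5.71 (SE 1.04), but stood at 1.59 (SE 0.180) with KYOT2 wild type and 0.71 (SE 0.0742) after 4-OHT. Gbp7 stood at 3.74, 0.76 and 0.32 in the same order, and Ncald at 1.63, 2.05 and 1.63. The interferon-response Gbp genes are close copies of each other, so reads may be split between them, and Notch1 reads in NICD1-ER cells may include the construct. The count depended on the setting and ran from 6 to 34 genes over the alternatives. It was 6 without ethanol library 2 or without 4-OHT 24 h library 2, 28 without a filter on low counts, and 19 without KYOT2 WWAA library 3, which is in none of the groups compared and enters only the estimate of the spread. Lgmn was outside the set in DESeq2 and without any 1 of the ethanol and 24 h libraries.

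**Figure D3:**
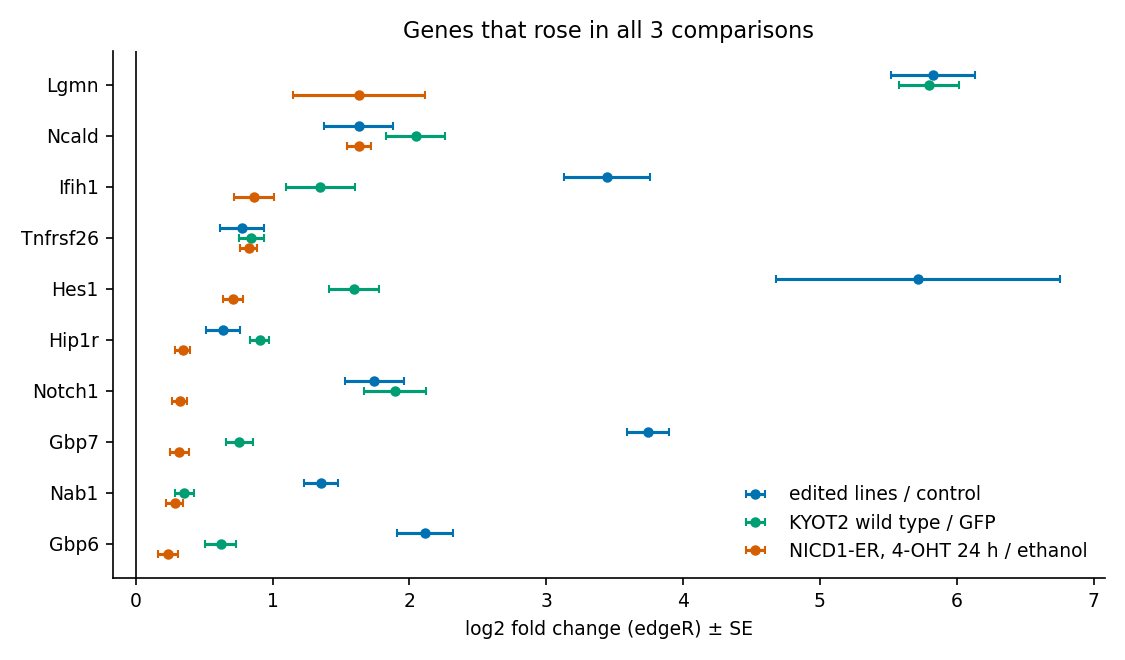
The log2 fold change from edgeR with its SE for the 10 genes that passed the test upward in all 3 comparisons, with 1 colour per comparison. Lgmn lies at 5.83 and 5.80 for the edited lines and KYOT2 wild type, where the other genes lie at or below 5.71 and 2.05.

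Likeness of pattern was measured as Pearson's r of log2(CPM + 0.5) group means, each centred on its experiment, over the 16 groups and against 13160 other genes. The groups within an experiment share their controls and their scaling, and r ignores the size of a change, so the values are a description. The highest was Cutc, a gene of copper handling, at r = 0.964. Zfp821, which encodes a zinc finger protein, followed at 0.951, and Spen, which encodes a corepressor that binds RBPJ, at 0.944. Prkaa1, a catalytic subunit of the energy sensor AMPK, stood at 0.936 and Frmd6, a FERM-domain protein, at 0.923. The rest of the 10 were 1700049G17Rik, Man2b1, Msl3l2, Hip1r and Bpnt1, between 0.912 and 0.922, and the eleventh gene also stood at 0.912, so the list has no natural end. Man2b1 is a lysosomal mannosidase. By Spearman's rho 7 of the 10 were again within the first 10.

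In the depletion, KYOT2 and BioNICD1 experiments these genes lay on the same side of the experiment mean as Lgmn, with smaller changes. Their log2 fold changes in the edited lines ran from 0.19 for Prkaa1 to 1.63 for Frmd6, and with KYOT2 wild type from 0.33 for Man2b1 to 1.06 for Cutc. The likeness did not hold in every comparison. After 24 h of 4-OHT the log2 fold change was −0.0079 for Prkaa1, −0.00023 for Man2b1 and positive for the rest. With BioNICD1 in control cells it was −0.05 for Spen and positive for the rest. Under GSI it was positive for Spen, Prkaa1 and Hip1r and negative for the rest. None of the 10 was among the 10 genes nearest to Lgmn by root mean square difference, a measure that keeps size. By that measure Hes1 was nearest, at 0.934 log2 units, followed by Fcgr2b, an inhibitory receptor for antibodies, at 0.958 and Rgs18, a regulator of G protein signalling, at 1.01.

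**Figure D4:**
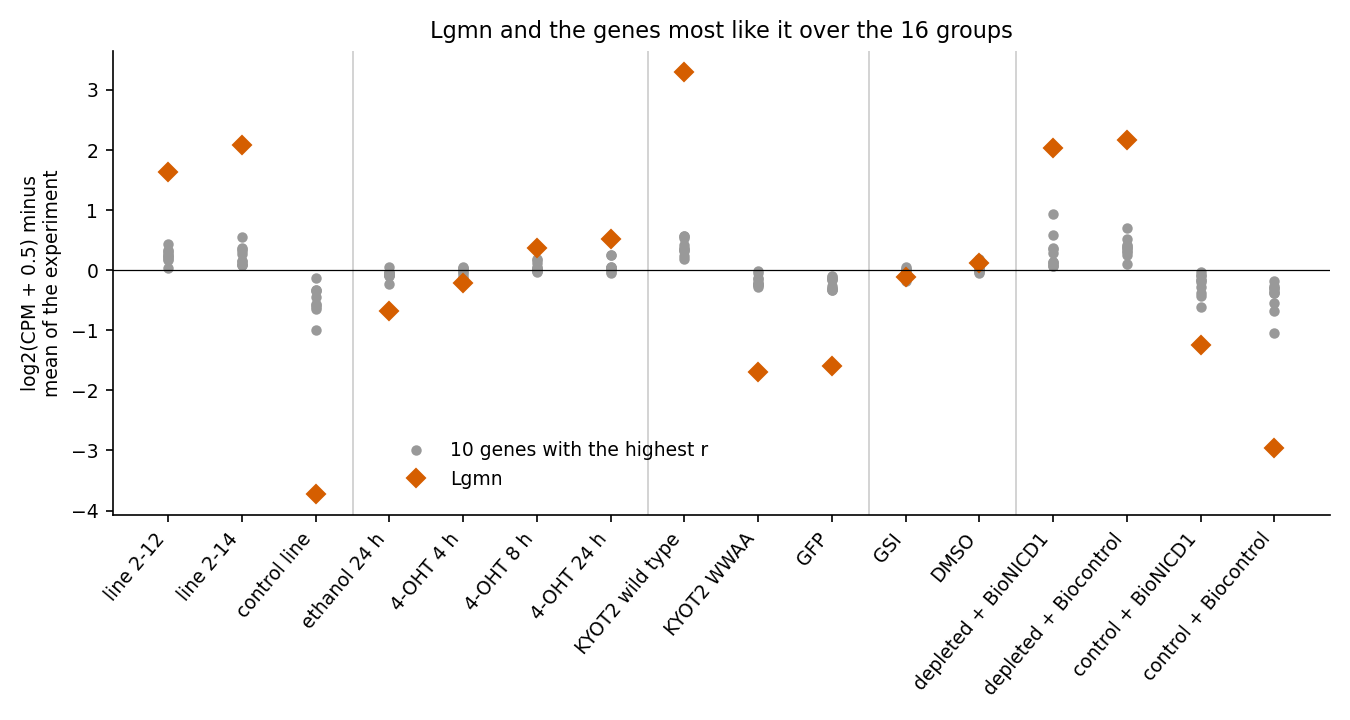
Group means of log2(CPM + 0.5) minus the mean of the experiment, over the 16 groups, for Lgmn (diamonds) and the 10 genes with the highest r (grey points), with experiments parted by lines. In the depletion, KYOT2 and BioNICD1 experiments all 10 genes lie on the same side of 0 as Lgmn and nearer to 0; in the NICD1-ER and GSI experiments some lie on the other side.

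The genes around Lgmn on chromosome 12 were read from the RefSeq gene table of GRCm38, 5 on each side, of which 7 were tested. In the edited lines, where 9.89% of all genes passed, 1 of the 7 rose and 1 fell. Rin3, which encodes a Rab5 exchange factor and is the next gene on one side, averaged 20.4 ± 4.45 CPM in the edited lines (n = 4) and 6.03 ± 4.29 CPM in the control line (n = 2), at a log2 fold change of 1.58 and an adjusted p of 0.0378 in edgeR. Golga5, a Golgi protein and the next gene on the other side, fell by 0.53 on the log2 scale. With KYOT2 wild type 0 of the 7 passed in edgeR and 0 in DESeq2, with 2 at an unadjusted p under 0.05, against 0.888% of all genes in edgeR. Under depletion with Biocontrol 1 rose (Rin3, log2 fold change 0.94) and 3 fell (Trip11, Atxn3 and Golga5), where 42% of all genes passed. With BioNICD1 in control cells 2 rose (Rin3 at 0.45 and Gm20604 at 0.39) and 2 fell (Atxn3 by 0.36 and Golga5 by 0.74), where 18.7% of all genes rose and 14.2% fell. Rin3 fell by 0.61 with BioNICD1 in depleted cells, where 1.45% of all genes fell, and Itpk1 by 0.68 with depletion under BioNICD1, where 21.4% fell. After 24 h of 4-OHT Atxn3 fell by 0.27 and Itpk1 by 0.23 in edgeR, where 4.22% of all genes fell, and 0 of the 7 passed in DESeq2. At 4 h and at 8 h 0 of the 7 passed in edgeR and 0 in DESeq2. In edgeR 3.16% of all genes rose and 3.09% fell at 4 h, and 5.06% rose and 5.31% fell at 8 h. GSI moved 0 of the 7 in edgeR and 0 in DESeq2, with 2 at an unadjusted p under 0.05, where 20.7% of all genes passed in edgeR.

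Pigk is the other mouse gene here of the same peptidase family, C13, and encodes the catalytic subunit of the enzyme that attaches GPI anchors. Its log2 fold change was 0.00017 in the edited lines, −0.06 with depletion under Biocontrol, 0.05 with KYOT2 wild type and −0.10 after 24 h of 4-OHT. None of these passed the test, with adjusted p from 0.267 to 1.00 in edgeR. Depletion under BioNICD1 differed from them: Pigk rose there, with 317 ± 142 CPM in depleted cells against 148 ± 31.2 CPM in control cells (SD, n = 3 each), a log2 fold change of 1.05 and an adjusted p of 0.0114 in edgeR. With BioNICD1 in control cells it fell by 0.86 on the log2 scale, with 148 ± 31.2 CPM against 276 ± 17.6 CPM with Biocontrol (SD, n = 3 each) and an adjusted p of 0.0350 in edgeR.

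The lysosome was read through 49 genes in 4 lists: cathepsins, other peptidases, hydrolases, and membrane and sorting proteins. In the edited lines 3 of 40 tested genes rose and 3 fell, where 6.21% of all genes rose and 3.68% fell, and their median log2 fold change was −0.06, against −0.0045 over all genes. Arsb, a sulfatase, rose (log2 fold change 1.34), as did the cathepsin Ctso (0.99) and the channel Mcoln1 (0.82). Ctse, an aspartic cathepsin of endosomes, fell by 3.20, Smpd1, the acid sphingomyelinase, by 1.62 and Scarb2, a membrane protein that sorts a lysosomal enzyme, by 0.57. No gene of these lists came near the 5.83 of Lgmn. Calls in the edited lines depended on the setting, from 2 to 32 over the alternatives: over all lists, cell markers aside, 13 genes passed, against 22 without a filter on low counts, 2 without control library 1, 4 without line 2-12 library 1, 3 without line 2-12 library 2, 4 without line 2-14 library 1 and 5 without line 2-14 library 2.

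Depletion with Biocontrol moved many more genes of all kinds, 21.7% upward and 20.3% downward. Of 41 lysosomal genes tested 10 rose and 13 fell, and their median log2 fold change was −0.07, against 0.02 over all genes. Arsb (1.86) and Ctso (1.27) rose in this comparison too. Cathepsin L, which legumain is known to process, fell by 1.98, to 12.9 ± 2.1 CPM in depleted cells against 51.2 ± 1.15 CPM in control cells (SD, n = 3 each), and cathepsin D fell by 1.49. The lysosomal membrane protein Lamp2 fell by 1.40. The cystatin Cst7, an inhibitor of cysteine proteases, rose by 1.10 and had fallen by 0.45 in the edited lines. Under BioNICD1 depletion lowered more of them than it raised, with 2 of 41 up and 19 down, where 18.5% of all genes rose and 21.4% fell; cathepsin D fell by 1.67, cathepsin B by 0.92 and Lamp2 by 1.69.

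BioNICD1 in control cells moved the lysosomal genes in both directions: 13 of 41 rose and 8 fell, with a median log2 fold change of 0.12 against 0.01 over all genes, where 18.7% of all genes rose and 14.2% fell. Cathepsin B, another legumain substrate, rose by 0.64 and cathepsin L fell by 2.37. Cathepsin S stood at 1.87 ± 0.373 CPM with BioNICD1 and had no count with Biocontrol. Cd74, the invariant chain that lysosomal proteases trim, rose to 8.61 ± 1.32 CPM with BioNICD1, against 1.92 ± 0.161 CPM with Biocontrol (SD, n = 3 each). After 24 h of 4-OHT 5 of 41 rose and 1 fell, where 6.59% of all genes rose and 4.22% fell. Among the hydrolases, Glb1 (log2 fold change 0.50), Lipa (0.49) and Asah1 (0.37) rose, and Arsb fell by 0.78.

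At the earlier times of 4-OHT, the lysosomal genes called were 1 up and 2 down of 41 at 4 h, where 3.16% of all genes rose and 3.09% fell, and 3 up and 3 down at 8 h, where 5.06% rose and 5.31% fell. Over all lists the 8 calls at 4 h became 5 without ethanol library 2. With BioNICD1 in depleted cells, where Lgmn also differed little, 0 of 41 rose and 3 fell, Tpp1 and Napsa among them, where 2.7% of all genes rose and 1.45% fell. The 5 calls over all lists there turned on single libraries, with 0, 1 and 13 without depleted Biocontrol library 1, 2 or 3, and 3, 2 and 2 without depleted BioNICD1 library 1, 2 or 3.

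With KYOT2 wild type 1 of 40 lysosomal genes rose and 0 fell, where 0.807% of all genes rose and 0.0807% fell in edgeR. That gene was Man2b1, at 71.0 ± 2.37 CPM in wild type libraries and 56.4 ± 3.82 CPM in GFP libraries (SD, n = 3 each), a log2 fold change of 0.33 with an adjusted p of 0.0152 in edgeR. The lysosomal regulators Tfeb, Tfe3 and Tfec did not pass there, and Mitf was below the filter on low counts and was not tested. In the edited lines Mitf rose, at 5.27 ± 1.20 CPM (n = 4) against 1.19 ± 0.271 CPM in the control line (n = 2).

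Under GSI many lysosomal genes rose by small amounts. Of 39 lysosomal genes tested 20 rose and 1 fell, where 9.16% of all genes rose and 11.6% fell, while Lgmn did not pass the test. The median log2 fold change was 0.15, against 0.0018 over all genes, and 38 of the 39 stood above the −0.29 of Lgmn. Among them were 4 of 5 non-cathepsin peptidases (Dpp7 at 0.84, Scpep1 at 0.53, Tpp1 and Napsa at 0.26) and 7 of 10 membrane and sorting genes (Ctns, the cystine carrier, highest at 0.56). Cathepsin L rose to 6.07 ± 0.0907 CPM with GSI, against 1.11 ± 0.304 CPM with DMSO (SD, n = 2 each), a log2 fold change of 2.44. DESeq2 gave fewer calls, with 9 members over all lists against 24 in edgeR.

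**Figure D5:**
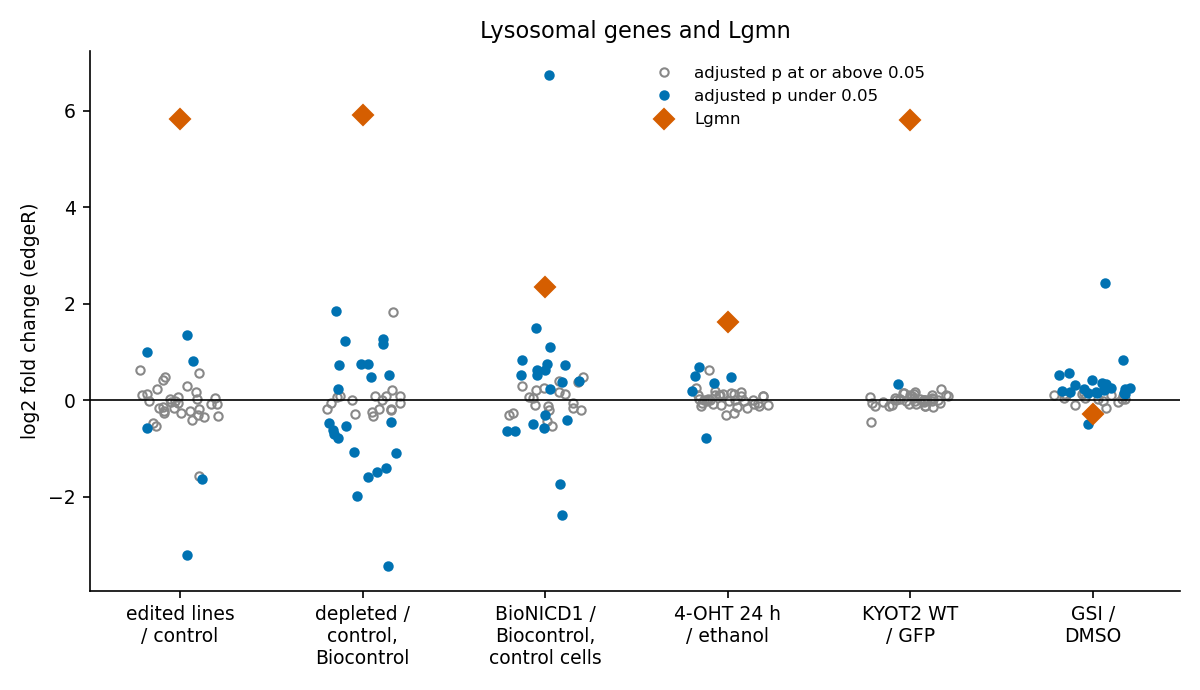
The log2 fold changes from edgeR for the tested genes of 4 lysosomal lists (circles, filled where the adjusted p was under 0.05) and for Lgmn (diamonds), in 6 comparisons. Lgmn lies above all of them in 5 comparisons except Ctss under BioNICD1, which had no count with Biocontrol so that its height is no measure of size, and below all but Arsb under GSI.

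Notch targets, read from a list of 12, moved in several of the same comparisons. In the edited lines 3 of 7 tested rose and 0 fell: Hes1, Hey1, a related repressor, and Il2ra, a chain of the interleukin 2 receptor. Of all genes 6.21% rose there. Depletion with Biocontrol, where 21.7% of all genes rose and 20.3% fell, raised 4 of 7 (Hes1, Il2ra, Gzmb and Myc) and lowered 2, Dtx1 by 1.27 and Ccnd1 by 0.86 on the log2 scale. Under BioNICD1 depletion lowered 5 of 7 and raised 0, where 21.4% of all genes fell. BioNICD1 in control cells raised 6 of 7, against 18.7% of all genes, and 24 h of 4-OHT raised 6 of 9, against 6.59%, and lowered Myc. Hey1 stood at 95.8 ± 1.36 CPM with BioNICD1 in control cells and 0.282 ± 0.256 CPM with Biocontrol (SD, n = 3 each), and at 49.4 ± 4.25 CPM after 24 h of 4-OHT against 2.28 ± 0.019 CPM after ethanol (n = 2 each). With KYOT2 wild type 2 of 5 rose, Hes1 and Gzmb, against 0.807% of all genes. Under GSI 2 of 4 rose, Gzmb and Myc, against 9.16%, and the others tested, Ptcra and Ccnd1, did not pass. Hes1, Hey1, Dtx1, Nrarp and Il2ra were not among the genes tested under GSI, so the list cannot show whether GSI lowered Notch activity. In the comparisons with NICD the log2 fold change of Lgmn, 2.35 and 1.63, lay under the list medians for BioNICD1 in control cells (6.95) and above that after 24 h of 4-OHT (0.63); with KYOT2 wild type the list median was 0.35 and Lgmn stood at 5.80.

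Since Lgmn is a gene of macrophages, 12 myeloid markers were read beside it, of which 5 to 9 had a count in a group. Their summed level was 17.1 to 23.8 CPM in line 2-12 and 16.4 to 19.6 CPM in line 2-14, against 34.7 to 44.1 CPM in the control line, and 13.1 to 18.0 CPM in depleted cells with Biocontrol against 43.2 to 47.0 CPM in control cells with Biocontrol. With KYOT2 wild type it was 20.0 to 23.2 CPM, against 16.6 to 26.1 CPM with GFP. In the NICD1-ER cells it was 30.8 to 32.6 CPM with ethanol, 21.3 to 21.9 CPM at 4 h, 21.0 to 25.5 CPM at 8 h and 37.0 to 37.2 CPM at 24 h, and it was 61.6 to 64.6 CPM with GSI against 40.6 to 45.2 CPM with DMSO. Cd68, a lysosomal membrane protein that T cells also express, made up most of these sums and fell to 16.7 ± 2.65 CPM in the edited lines (n = 4), against 38.0 ± 6.65 CPM in the control line (n = 2). The other 11 markers together came to 3.22 to 4.51 CPM in line 2-12 and 0.915 to 1.36 CPM in line 2-14, against 1.33 to 1.38 CPM in the control line. In the BioNICD1 experiment they came to 3.12 to 3.81 CPM in depleted cells with Biocontrol, 4.17 to 5.78 CPM in control cells with Biocontrol and 11.0 to 12.3 CPM in control cells with BioNICD1. They stood at 0.634 to 0.953 CPM with KYOT2 wild type against 0.423 to 1.34 CPM with GFP, and at 11.2 to 12.2 CPM after 24 h of 4-OHT against 4.35 to 6.58 CPM after ethanol. Itgam, an integrin chain of myeloid cells, averaged 2.46 ± 0.166 CPM in libraries of line 2-12 and 0.123 ± 0.174 CPM in those of line 2-14, and had no count in the control line (SD, n = 2 each). C1qa had no count in 15 of the 16 groups, all but the control line, and C1qb in 15, all but line 2-14. C1qc had none in 13, all but the groups of the depletion experiment, and Cd14 in 12. The other markers lacked a count in fewer groups: Adgre1 in 8, Csf1r and Spi1 in 4, Fcgr1 and Mrc1 in 3, and Itgam in 1. Cd68 and Lyz2 had a count in every group. Spi1, the myeloid factor PU.1, rose with NICD: it stood at 6.09 ± 0.261 CPM after 24 h of 4-OHT and 0.302 ± 0.181 CPM after ethanol (n = 2 each), and at 2.81 ± 0.660 CPM with BioNICD1 in control cells, with no count with Biocontrol (n = 3 each). The part of these markers in the Lgmn values was not tested. Cd4 moved in opposite directions in the depletion experiments. It stood at 83.0 ± 42.7 CPM in the edited lines (n = 4) against 1.18 ± 0.724 CPM in the control line (n = 2). With Biocontrol it stood at 0.696 ± 0.149 CPM in depleted against 11.0 ± 0.568 CPM in control cells (n = 3 each). The SD of the edited lines pools libraries of both lines. Differences between single lines cannot be told apart from RBPJ loss in this design.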

How the data were processed

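The authors deposited raw read counts per gene symbol; the submitters' processing notes name TopHat2 2.1.1, Picard, deepTools and the build mm9, and the counting tool is not given in the sources used here. Of 65 columns 41 were used; of the other 24, 2 share a heading and 22 name no sample given here. The deposited region lists were not used. Experiments were fitted separately in R 4.3.3 with edgeR 4.0.16, using TMM factors, filterByExpr, 1 mean per group and a prior count of 0.125, and quasi-likelihood F-tests were two-sided and adjusted by Benjamini-Hochberg over all genes tested, with a threshold of 0.05. Alternatives were RLE factors, no filter, DESeq2 1.42.0, a replicate block and leaving out each replicate; the fits were tested on simulated data. Lgmn, the gene lists and the alternatives were chosen with earlier results of these data known. Genes named are Lgmn, the 10 most like it, those with the same 3 rises, list members and label checks. Leaving out replicates for lists and shared rises was added after seeing the data. Levels compared between groups are TMM CPM unless CPM by library total is named. Levels were not compared between genes.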

Additional observations from a re-analysis of the deposited data

How the results depend on the processing

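The Lgmn log2 fold changes kept their direction under RLE factors, no filter, DESeq2, every library as a sample and the replicate block. The replicate block was kept as an alternative, since the labels do not say what a shared number marks. Same-numbered libraries correlated at r = 0.0349 to 0.408 for KYOT2 and −0.449 to 0.549 for BioNICD1. In the depletion experiment, where each group has only 2 numbers, they correlated at 0.433 to 0.608. KYOT2 libraries numbered 3 correlated at 0.284 to 0.408 with each other across groups and at −0.285 to −0.0653 with other numbers. The main fit leaves such shared spread in its errors. Leaving out 1 replicate gave log2 fold changes of 5.38 to 7.65 in the edited lines, 5.45 to 6.08 for KYOT2 wild type over GFP, −0.27 to 0.0078 for BioNICD1 in depleted cells, −0.10 to 1.23 at 4 h of 4-OHT, −0.62 to 0.0051 for KYOT2 WWAA over GFP and −0.66 to 0.018 for GSI over DMSO, where no difference was called. List calls in the edited lines, 13, became 22 without a filter, 32 with the replicate block and 2 to 13 without 1 replicate. For BioNICD1 in depleted cells the 5 calls became 2 with the block and 0 to 13 without 1 replicate. DESeq2 gave 5 calls against 8 in edgeR at 4 h, 7 against 12 at 8 h and 9 against 24 under GSI; without 1 replicate the edgeR calls were 5 to 8, 8 to 12 and 16 to 26. KYOT2 wild type had 3 calls, 5 without a filter and 2 to 4 without 1 replicate. The 10 genes with all 3 rises became 28 without a filter, 34 with the block and 6 to 19 without 1 replicate. By root mean square difference 0 of the 10 most like genes were kept. The causes were not tested. The low groups hold 10 to 77 Lgmn counts in all, which limits every fold.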
